A study of Salmo trutta with 45 samples.

Results

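The gene described here carries the zebrafish ID ENSDARG00000069375 and the name zgc:162608, and it was measured in the livers of brown trout (Salmo trutta) exposed to Roundup or to glyphosate. Its members are all transcripts of the de novo liver transcriptome with that ID: 7 of 67093 transcripts, all isoforms of 1 Trinity component (comp118382_c0, isoforms 1, 3, 4, 5, 6, 7 and 8), and all 7 are listed for every exposure. The gene was picked because it was high in the fish of the lowest Roundup group, so the values of that group are given as a description and no test of them is reported. The fish were juvenile females, 6 months old, held for 14 days in flow-through tanks. Roundup was given at 0.01 mg/L (LR), 0.5 mg/L (MR) and 10 mg/L (HR), as glyphosate acid equivalent of a garden concentrate, and glyphosate of analytical grade at 0.01 mg/L (LG) and 10 mg/L (HG). Each exposed group has 6 fish, and the water controls, which received neither chemical, have 12. Each fish is 1 liver and 1 RNA-seq library. The 12 controls were pooled by the authors from 2 control groups, and which of these a control fish came from is not given in the sources used here. Each treatment was held in 2 replicate tanks, the labels do not say which fish shared a tank, and the spread between fish therefore also holds any difference between tanks or between the 2 control groups. The middle glyphosate group was not analysed here.

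Glyphosate is a herbicide that blocks an enzyme of the shikimate pathway, which plants use to make aromatic amino acids and animals lack, and Roundup is a commercial formulation of glyphosate that also contains other ingredients such as surfactants. The trout liver makes most plasma proteins and lipoproteins and processes foreign chemicals. A name beginning with zgc comes from a zebrafish cDNA collection and says nothing of function. The annotation lists no human match for any of the 7 isoforms. In other fish the match of isoform 1 is an uncharacterised protein, and the remaining 6 isoforms share a different match that carries a gene ID and no description. No role is therefore given for zgc:162608. The RefSeq annotation of the brown trout genome (assembly fSalTru1.1) holds 1 gene of the same name, with laynb and si:dkey-103g5.4 among its named neighbours. That match is by name only, because the deposited transcripts have no genome coordinates.

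Reads counted per fish range over 10186777 to 33239495, and no 2 of the 42 libraries are identical. Levels are CPM, reads of a gene per 1000000 reads counted, on library sizes scaled by TMM over the transcripts listed for every exposure. Over 16983 genes, 4 libraries stood apart from the other fish of their own group by the mean absolute log2 difference from the median of those fish, namely LG fish 1 (0.79), MR fish 1 (0.75), LR fish 3 (0.52) and HR fish 3 (0.52). The other 38 libraries lay between 0.30 and 0.49, the highest of them being MR fish 4. No threshold was set beforehand. The 4 were taken after seeing the data, and LR fish 3 and HR fish 3 lay close to MR fish 4. The hepatocyte markers were high in every group: their 14 genes summed to 103942 to 182279 CPM in exposed fish and 115540 to 152610 CPM in controls. Markers of other cells summed to far less, with 263 to 929.7 CPM for the 3 erythrocyte genes and 33.3 to 119 CPM for the 4 exocrine pancreas genes measured on the common scale. Only 3 of 7 erythrocyte symbols and 6 of 8 exocrine pancreas symbols had a match, against 13 of 13 for hepatocytes. The sums are therefore incomplete, and their sizes are not comparable between cell types. In unsorted liver tissue, fewer cells of a type and less RNA per cell cannot be told apart.

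In LR fish, zgc:162608 was at 119.5, 217, 194, 137, 30.2 and 228 CPM in fish 1 to 6, against 15.1 CPM in the lowest, 30.7 CPM in the median and 98.6 CPM in the highest of the 12 controls. Thus 5 of the 6 LR fish lay above every control, and LR fish 5 lay near the control median. The highest control was control 9, and the next highest, control 6, was at 59.8 CPM. The means were 154 ± 74.7 CPM in LR fish (SD, n = 6) and 37.7 ± 22.6 CPM in controls (SD, n = 12). The fitted log2 fold change was 2.02 ± 0.35 (SE), or 4.07-fold, and 0.102% of the 20597 genes tested had a higher one. The SE of the LR value depended on the fit. It was 0.41 by DESeq2, 0.56 with all groups fitted together and 0.27 with the replicate number as a block. In that comparison edgeR's quasi-likelihood test called 11 of the 20597 genes at an adjusted p under 0.1 (0.0534%), 3 of them higher in LR (0.0146%) and 8 lower (0.0388%). Because the gene was chosen from this contrast, nothing further is read from that share. Leaving out each of the 18 fish in turn gave log2 fold changes from 1.88 to 2.25, which describe the values that chose the gene. It was 1.95 without LR fish 3, the library that stood apart. The ranges of the marker sums in LR fish and controls overlapped for all 7 cell types, but single LR fish lay outside the control range. LR fish 5, the lowest LR fish for the gene, had a stellate and fibroblast sum of 1003 CPM, the highest of all 42 fish (highest control 645 CPM). LR fish 6, the highest, had 848 CPM of erythrocyte markers (highest control 721 CPM) and 161141 CPM of hepatocyte markers (highest control 152610 CPM). The part of these in the level of zgc:162608 was not tested.

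**Figure D1:**
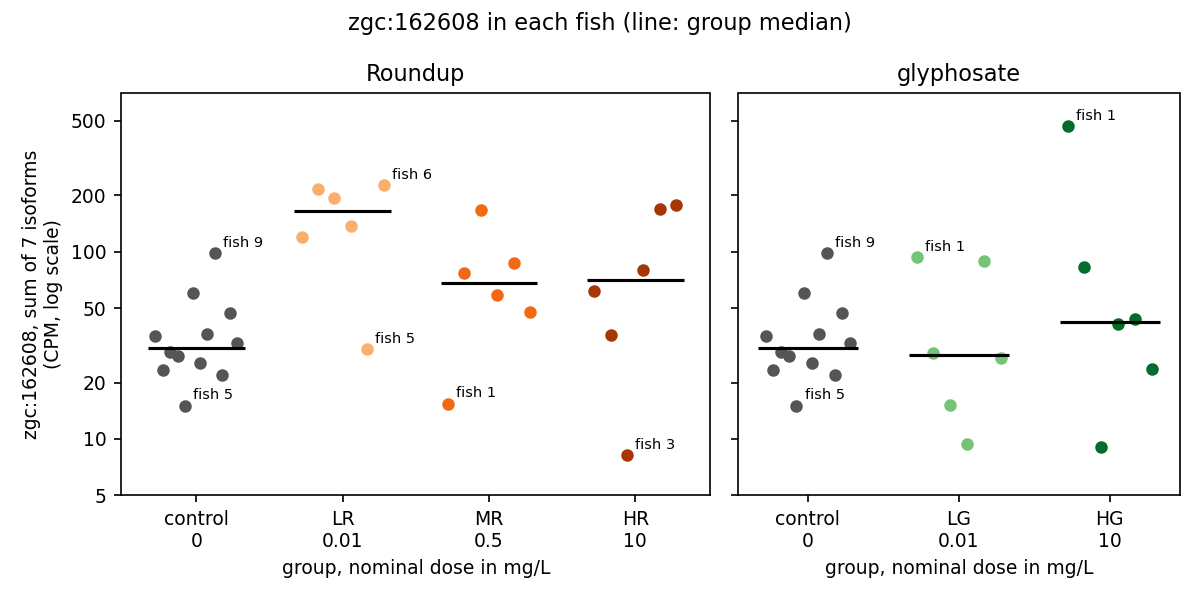
Level of zgc:162608 (sum of 7 isoforms, CPM on a log axis) in each fish, with Roundup groups on the left, glyphosate groups on the right and the same 12 controls at the low end of both panels; points are fish and lines are group medians. Of the LR fish, 5 lie above the highest control (98.6 CPM), and HG fish 1, at 468 CPM, is the highest of all fish.

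MR fish were at 15.4, 77.3, 167, 59.09, 87.5 and 47.9 CPM, with a mean of 75.7 ± 51.2 CPM (SD, n = 6) against 37.7 ± 22.6 CPM in controls (SD, n = 12). Of these, 5 lay above the control median but only fish 3 lay above every control. The log2 fold change was 1.00 ± 0.37 (SE), which did not pass the threshold (edgeR quasi-likelihood test, unadjusted p = 0.0133, adjusted p = 0.313 over 20832 genes). HR fish were at 62.0, 35.8, 8.21, 79.9, 169.6 and 178 CPM, a mean of 88.9 ± 70.07 CPM (SD, n = 6). Fish 5 and 6 lay above every control and fish 3 below every control. The log2 fold change of HR over control was 1.23 ± 0.43 (SE) and did not pass the threshold either (edgeR quasi-likelihood test, unadjusted p = 0.00881, adjusted p = 0.416 over 20801 genes).

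These 2 tests, like those of the glyphosate groups, use the same 12 controls as the contrast that chose the gene, so they are not independent of that choice. An exact permutation test, 2-sided, of the difference in mean log2 CPM, with all 18564 ways to divide the fish, gave a difference of 0.86 and p = 0.0643 for MR against control, and a difference of 0.84 and p = 0.147 for HR against control. Adjusted over the 7 exact tests of this gene, these became 0.450 and 0.513. The quasi-likelihood test compares means of counts, in which single high fish weigh more than in a mean of logs. It called 0 of 20832 genes in MR (0%), where 2287 genes had an unadjusted p under 0.05, the edgeR exact test called 281 and DESeq2 called 277. In HR it called 1 of 20801 genes (0.00481%), and zgc:162608 was not that gene. There, 1722 genes had an unadjusted p under 0.05, the edgeR exact test called 196 and DESeq2 called 149. The 2 libraries that stood apart were the lowest of their groups, and without them the log2 fold changes were 1.21 ± 0.33 (SE) for MR and 1.48 ± 0.36 (SE) for HR, with adjusted p of 0.393 and 0.591 by the quasi-likelihood test.

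In the glyphosate groups only HG fish 1 lay above every control. LG fish were at 93.8, 28.8, 15.2, 9.35, 89.2 and 27.1 CPM, with a mean of 43.9 ± 37.6 CPM (SD, n = 6) against 37.7 ± 22.6 CPM in controls (SD, n = 12). None lay above the highest control, fish 4 lay below the lowest, and 2 of 6 were above the control median. The log2 fold change was 0.21 ± 0.42 (SE; edgeR quasi-likelihood test, unadjusted p = 0.625, adjusted p = 0.942 over 21042 genes), with a 95% interval from -0.62 to 1.04. Its sign depends on single fish: it was -0.16 without LG fish 1, the library that stood apart, and -0.12 without LG fish 5. The mean of log2 CPM was slightly lower in LG than in controls, by -0.09, with an exact permutation p of 0.854 (2-sided, 18564 splits).

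HG fish 1 had the highest level of all 42 fish, 468 CPM, and the other HG fish were at 83.0, 9.04, 40.9, 43.6 and 23.5 CPM. The mean was 111 ± 176 CPM in HG fish (SD, n = 6) and 37.7 ± 22.6 CPM in controls (SD, n = 12). The log2 fold change of HG over control was 1.55 ± 0.54 (SE) and did not pass the threshold (edgeR quasi-likelihood test, unadjusted p = 0.00895, adjusted p = 0.549 over 21144 genes). Fish 1 alone decides this value, since without it the log2 fold change was 0.08. Fitted with the replicate number as a block the log2 fold change was 0.76, with an adjusted p of 0.991 by the quasi-likelihood test. The numbers are not shown to pair the fish, and this fit in effect uses only controls 1 to 6. The exact permutation test of mean log2 CPM, in which fish 1 weighs less, gave a difference of 0.57 and p = 0.381 (2-sided, 18564 splits). HG fish 1 did not stand apart over all genes, and its marker sums lay inside the range of the other 41 fish. Its endothelial sum, however, was 27.5 CPM, rank 41 of 42, and its stellate and fibroblast sum was 292 CPM, rank 40 of 42; the part of these in the level of zgc:162608 was not tested. In neither glyphosate comparison did the quasi-likelihood test call any gene (0% of 21042 in LG and 0% of 21144 in HG). At an unadjusted p under 0.05 there were 1613 genes in LG and 1583 in HG, the edgeR exact test called 131 and 22, and DESeq2 called 23 and 16.

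The remaining contrasts compare exposed fish that had no part in choosing the gene. HG exceeded LG by a log2 fold change of 1.34 ± 0.83 (SE), with a 95% interval from -0.30 to 2.97, which did not pass the threshold (edgeR quasi-likelihood test, adjusted p = 0.836; exact permutation test over 924 splits, 2-sided, p = 0.509). Without HG fish 1 it was -0.13. HR over MR was 0.23 ± 0.62 (SE), with an interval from -0.98 to 1.44 (adjusted p = 1 by the quasi-likelihood test, exact permutation p = 0.978). The sign turned when HR fish 5 (-0.05) or HR fish 6 (-0.09) was left out, and the value was 0.63 when MR fish 3 and 0.02 when MR fish 1 was left out. At the matched dose of 10 mg/L, Roundup over glyphosate (HR over HG) was -0.33 ± 0.83 (SE), with an interval from -1.96 to 1.30 (adjusted p = 0.97 by the quasi-likelihood test, exact permutation p = 0.803). Without HG fish 1 it was 1.15, so no direction can be given. With the replicate number as a block, though the numbers are not shown to pair the fish, it was 0.33. These intervals are wide enough to hold a difference of more than 2-fold either way between HR and HG. In all 3 contrasts the quasi-likelihood test called 0% of genes (0 of 20452, 0 of 20259 and 0 of 20346), with 1223, 568 and 1147 genes at an unadjusted p under 0.05. The edgeR exact test called 9, 6 and 6 and DESeq2 called 8, 1 and 8.

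At the matched dose of 0.01 mg/L, LR fish had a median of 165 CPM and LG fish a median of 27.96 CPM. The log2 fold change of LR over LG was 1.81 ± 0.58 (SE), given without a test because LR chose the gene. The 2 groups overlapped, since LG fish 1 and 5, at 93.8 and 89.2 CPM, lay above LR fish 5 at 30.2 CPM.

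**Figure D2:**
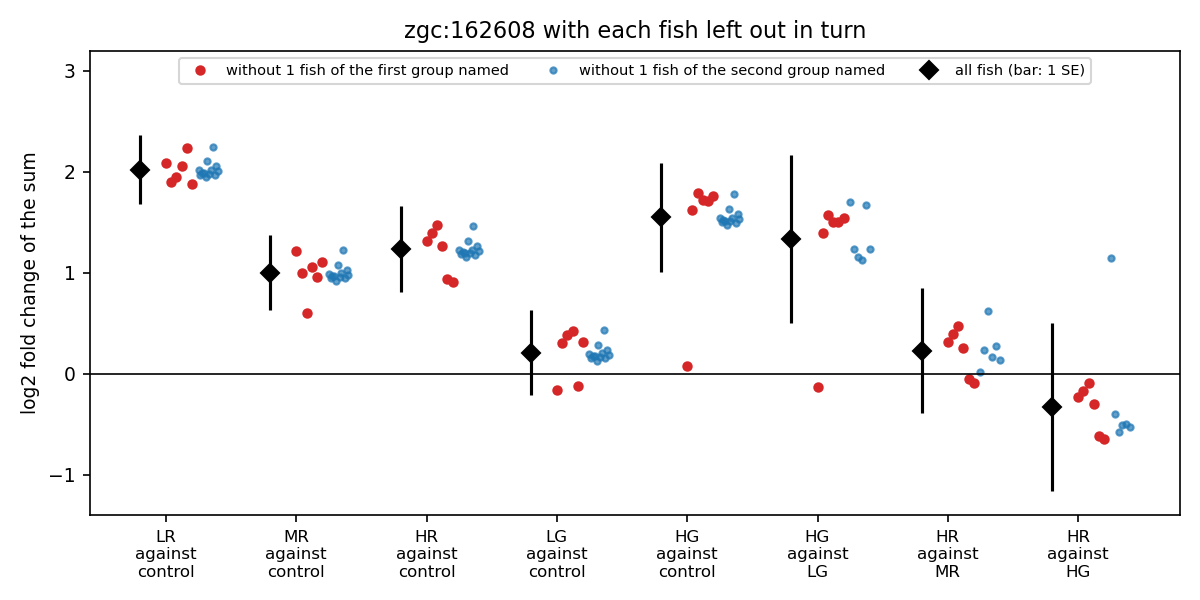
Log2 fold change of zgc:162608 (sum of isoforms) in 8 contrasts, with all fish (diamonds, bars 1 SE) and with each fish left out in turn (red, a fish of the group named first; blue, a fish of the group named second). Without HG fish 1, HG over control is 0.08 (1.55 with all fish) and HR over HG is 1.15 (-0.33 with all fish); the LR values, from 1.88 to 2.25, belong to the contrast that chose the gene and are a description.

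Ordered by mean log2 CPM, the groups ran LR (7.02), MR (5.92), HR (5.90), HG (5.64), control (5.06) and LG (4.97). Of the neighbours in that order, MR and HR, HR and HG, HG and control, and LG and control did not differ beyond the spread between fish in the exact permutation tests above, and LR and MR were not tested. The spread itself was large. The SD of log2 CPM was 1.09 for LR fish, 1.14 for MR fish and 1.65 for HR fish, and 1.33 for LG fish and 1.91 for HG fish, against 0.71 for controls. Among Roundup fish the highest was 7.53-fold above the lowest at LR, 10.8-fold at MR and 21.6-fold at HR, and among glyphosate fish 10.03-fold at LG and 51.7-fold at HG, against 6.54-fold among controls. Pooled within the 5 exposed groups the SD was 1.46, against a median of 0.42 over 16983 genes, and 1.01% of those genes varied more. Among controls the gene also varied more than most, as 6.87% of genes had a larger SD. The ratio of the exposed to the control SD was 2.05 for zgc:162608, against a median of 1.18 over all genes, and 7.03% of genes had a larger ratio. The exposed SD includes the LR fish, and the control SD comes from the controls that LR was compared with. The ranks by SD and by ratio are therefore not independent of the choice of the gene, and are given as a description. Without HG fish 1 the pooled SD was 1.30, and it was also 1.30 without the 4 libraries that stood apart. At a mean of 37.7 CPM in controls, 11.0% of the genes were more abundant. Depth did not order the controls, since the level and the log2 reads counted per control had r = -0.09 (permutation p = 0.777) and rho = -0.09 (permutation p = 0.782).

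Read counts of single isoforms were added because isoforms of 1 component share sequence, and a read that matches several was kept for only 1 of them, so that the split between isoforms is less certain than their sum. In the median of the 42 fish, isoform 5 held 23.5% of the reads, isoform 6 held 17.2%, isoform 8 held 14.7%, isoform 4 held 14.1%, isoform 7 held 12.8%, isoform 3 held 11.6% and isoform 1 held 4.78%. The 6 isoforms other than isoform 1 moved together. Over the 42 fish, Pearson's r of log2 CPM lay between 0.96 and 0.99 for the 15 pairs among them and between 0.64 and 0.72 for the 6 pairs with isoform 1, a description in which isoforms share reads, libraries and depth.

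All 7 isoforms were higher in LR than in controls. The median of isoform 5 was 36.8 CPM in LR fish, with a range of 6.44 to 56.2 CPM, and 6.52 CPM in controls, with a range of 3.38 to 26.5 CPM. The median of isoform 1 was 6.82 CPM in LR fish, from 2.24 to 19.7 CPM, and 1.83 CPM in controls, from 0.40 to 4.71 CPM. Their log2 fold changes in LR ran from 1.85 for isoform 7 to 2.11 for isoform 1, with SEs of 0.31 to 0.38, as a description only, where 13 of 62153 transcripts were called by the quasi-likelihood test (0.0209%). None of the 28 isoform tests in MR, HR, LG and HG passed the threshold of edgeR's quasi-likelihood test across all transcripts, whose adjusted p lay between 0.2 and 0.989. An unadjusted p under 0.05 was reached by 6 of 7 isoforms in MR (8.93% of all transcripts), 6 of 7 in HR (7.34%), 1 of 7 in LG (6.72%) and 7 of 7 in HG (6.48%), 20 of 28 in all, in tests that share reads and the 12 controls. In those comparisons the test called 1 of 62718 transcripts for MR (0.00159%) and 4 of 62556 for HR (0.00639%), and 0 of 63513 for LG (0%) and 1 of 63537 for HG (0.00157%). By the edgeR exact test isoform 1 passed in MR, where that test called 622 of 62718 transcripts (0.992%), and isoform 6 passed in HR, where it called 420 of 62556 (0.671%). In HR the adjusted p of that test was 0.0996 for isoform 6, at the edge of the threshold. It was 0.103 for isoform 4 and 0.116 for isoform 3, which did not pass. By DESeq2 isoform 1 passed in MR, among 466 of 50461 transcripts called (0.923%). The adjusted p of isoform 1 in MR was 0.00754 by the edgeR exact test, 0.0309 by DESeq2 and 0.2 by the quasi-likelihood test.

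The log2 fold change of isoform 1 was 1.54 ± 0.37 (SE) in MR, where the other 6 ran from 0.80 to 1.04, and 1.43 ± 0.64 (SE) in LG, where the other 6 ran from -0.07 to 0.20. In LG the next highest fish after LG fish 1, at 24.8 CPM of isoform 1, was at 3.295 CPM. In HR isoform 1 was the lowest, with 0.80 ± 0.41 (SE) for isoform 1 and 1.07 to 1.34 for the others. In HG all 7 lay between 1.44 and 1.65. The difference between isoform 1 and the other isoforms was not tested.

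**Figure D3:**
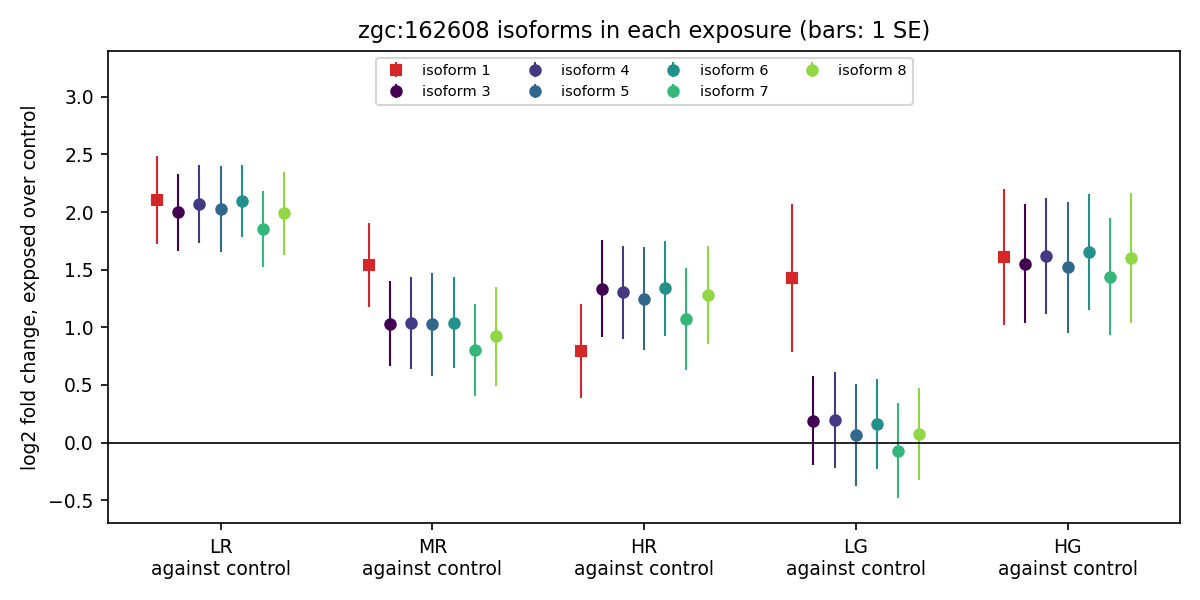
Log2 fold change of each zgc:162608 isoform in each exposure over control (points; bars 1 SE; isoform 1 as red squares). The 7 isoforms lie together in LR and HG, and isoform 1 lies above the other 6 in MR (1.54) and LG (1.43).

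By level, isoform 1 lay above the highest control (4.71 CPM) in 5 of 6 LR fish, 4 of 6 MR fish, 2 of 6 HR fish, and 1 of 6 fish in each of LG and HG, with the highest value, 26.6 CPM, in HG fish 1. By share of the reads of the gene, 4 fish lay above all others. In MR fish 1 isoform 1 held 100 of the 154 reads of the gene, or 64.9% (95% Wilson interval 57.1 to 72.0%), in LG fish 1 it held 362 of 1367 reads, or 26.5% (24.2 to 28.9%), in HR fish 3 it held 25 of 132 reads, or 18.9% (13.2 to 26.5%), and in LR fish 3 it held 288 of 2839 reads, or 10.1% (9.09 to 11.3%). In the other 38 fish it held 1.198 to 8.51%, with 1.43 to 8.24% among the controls. The interval of LR fish 3 overlapped those of other fish, such as MR fish 5 (7.31 to 9.89%) and control 2 (6.01 to 11.2%). Its share is therefore not set apart from theirs. The intervals cover counting error only, since reads without molecular identifiers are not independent molecules. The 4 fish with the highest shares are the same 4 libraries that stood apart over all genes. That group of 4 was drawn after seeing the data and without a set threshold, so the match is a description. The part of that departure in the share of isoform 1 was not tested. In MR fish 1 the other 6 isoforms together were at 5.41 CPM, against 14.2 CPM in the lowest control, while isoform 1 was at 10.0 CPM, above the 4.71 CPM of the highest control. In LG fish 1, isoform 1 was at 24.8 CPM and the other 6 isoforms were at 68.9 CPM, within the controls' range of 14.2 to 93.8 CPM. Summing the 6 isoforms without isoform 1 gave log2 fold changes over control of 2.02 for LR, 0.97 for MR and 1.26 for HR, and of 0.10 for LG and 1.55 for HG, so that only the LG value moved by more than 0.1.

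**Figure D4:**
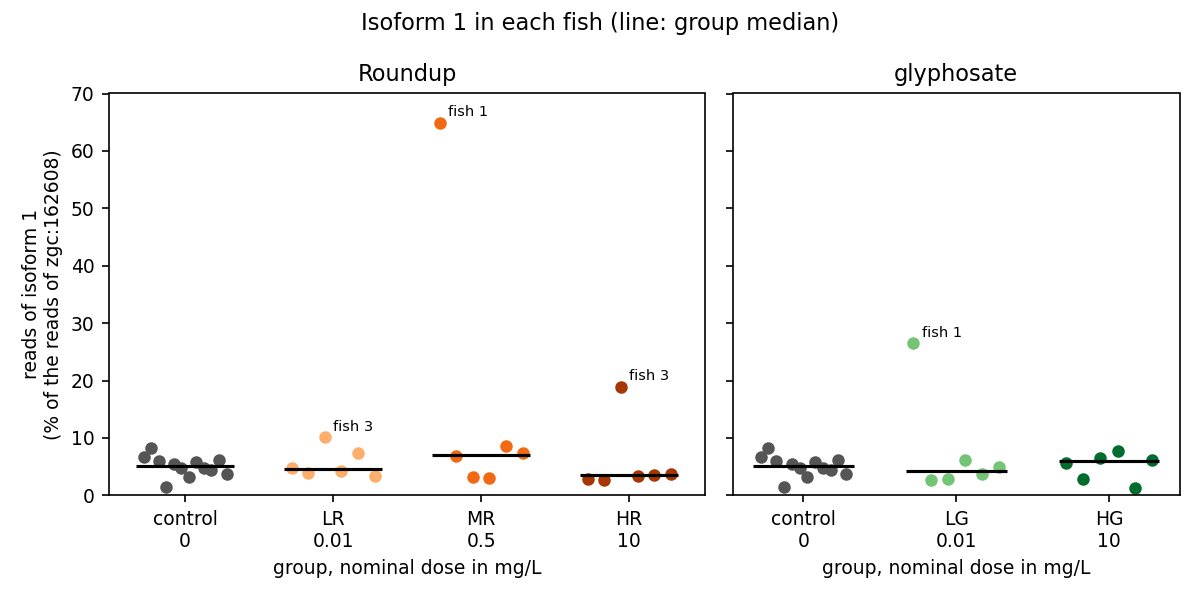
Share of the reads of zgc:162608 that were counted on isoform 1 (%, y axis) in each fish, with Roundup groups on the left, glyphosate groups on the right and the same controls at the low end of both panels; lines are group medians. The share is 64.9% in MR fish 1, 26.5% in LG fish 1, 18.9% in HR fish 3 and 10.1% in LR fish 3, and at most 8.51% in any other fish.

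Genes whose level follows zgc:162608 without any exposure were looked for among the 12 controls, over 16983 genes with reads in every control and a mean of at least 1 CPM. None passed an adjusted p of 0.1 (permutation test with 100000 resamples, 2-sided, smallest adjusted p = 0.844). With that number of resamples the adjusted p of a single gene cannot fall below 0.170, so no gene could have passed alone. The smallest adjusted p lay above that limit. The 997 genes at an unadjusted p under 0.05 were 5.87% of those entered. By Spearman's rho, 0 genes passed as well. The genes named next are therefore those most like zgc:162608 in these fish, not genes shown to follow it.

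The highest Pearson's r of log2 CPM was that of tubulin folding cofactor E-like a (r = 0.86, permutation p = 0.00044; rho = 0.88, permutation p = 0.00034), a relative of a protein that handles tubulin. It was at 2.86 and 2.72 CPM in controls 9 and 6, the controls with most zgc:162608, and at 1.098 CPM in control 5, the one with least. Next came gamma-glutamyltransferase 5, of a family of enzymes that cleave glutathione and related compounds (r = 0.86, permutation p = 0.00055; rho = 0.84, permutation p = 0.00126), with 7.80 and 9.90 CPM in controls 9 and 6 and 2.81 CPM in control 5. Mannosidase, alpha, class 2B, member 1, the lysosomal enzyme that removes mannose from glycoproteins, had r = 0.85 (permutation p = 0.00033; rho = 0.81, permutation p = 0.00236). Its level varied little, with 32.98 and 32.9 CPM in controls 9 and 6 and 23.9 CPM in control 5. Its r depended on the scaling, and was 0.61 on library totals without TMM. On that scale r was 0.81 for tubulin folding cofactor E-like a and 0.82 for gamma-glutamyltransferase 5.

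The other 9 of the 12 zebrafish-annotated genes with the highest r lay between 0.78 and 0.85. They were nudE-like 1 B, which acts with dynein, tetraspanin 4, a membrane protein, deoxyhypusine hydroxylase, which modifies a translation factor, vesicle-associated membrane protein 5, glycolipid transfer protein domain containing 1, an annotated ribosomal protein S6 kinase, amyloid beta precursor protein-binding family B member 1, mannosidase beta A lysosomal-like and polo-like kinase 2b. Without the 2 controls farthest from the median, controls 9 and 5, the r of these 12 genes lay between 0.44 and 0.88. The value that fell most was that of the ribosomal protein S6 kinase, to 0.44 from 0.80 over all 12 controls, so that among controls its relation rests largely on those fish.

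The 8 genes with the lowest r lay between -0.82 and -0.80. ASF1 anti-silencing function 1 homolog Bb, a histone chaperone, had r = -0.82 (permutation p = 0.00154) but rho = -0.58 (permutation p = 0.0528). The others were polymerase iota, a translesion DNA polymerase, the beta chain of propionyl-CoA carboxylase, a mitochondrial enzyme of propionate breakdown, nudix-type motif 4b, immunoglobulin (CD79A) binding protein 1, PRELI domain containing 1a, cyclin-dependent kinase 4, a driver of the cell cycle, and si:ch211-93g23.2. Without controls 9 and 5 their r lay between -0.83 and -0.45, and it was -0.83 for cyclin-dependent kinase 4 and -0.45 for immunoglobulin (CD79A) binding protein 1.

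As a set, the relations did not carry over to exposed fish. Over the 30 exposed fish, after each group mean was removed, the r of the 12 genes lay between -0.41 and 0.44 with a median of -0.06, and 5 of 12 had the same sign as in controls. The highest of these, 0.44 (rho = 0.49), was that of the ribosomal protein S6 kinase. For the 8 genes with negative r it lay between -0.17 and 0.23, and 3 of 8 had the same sign. In a wider look, 214 genes had an absolute r of at least 0.7 among controls, 75 positive and 139 negative, and 48.6% of them had the same sign in exposed fish, against 49.6% of all 16983 genes. These values are descriptions over fish that the choice of the genes did not use.

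**Figure D5:**
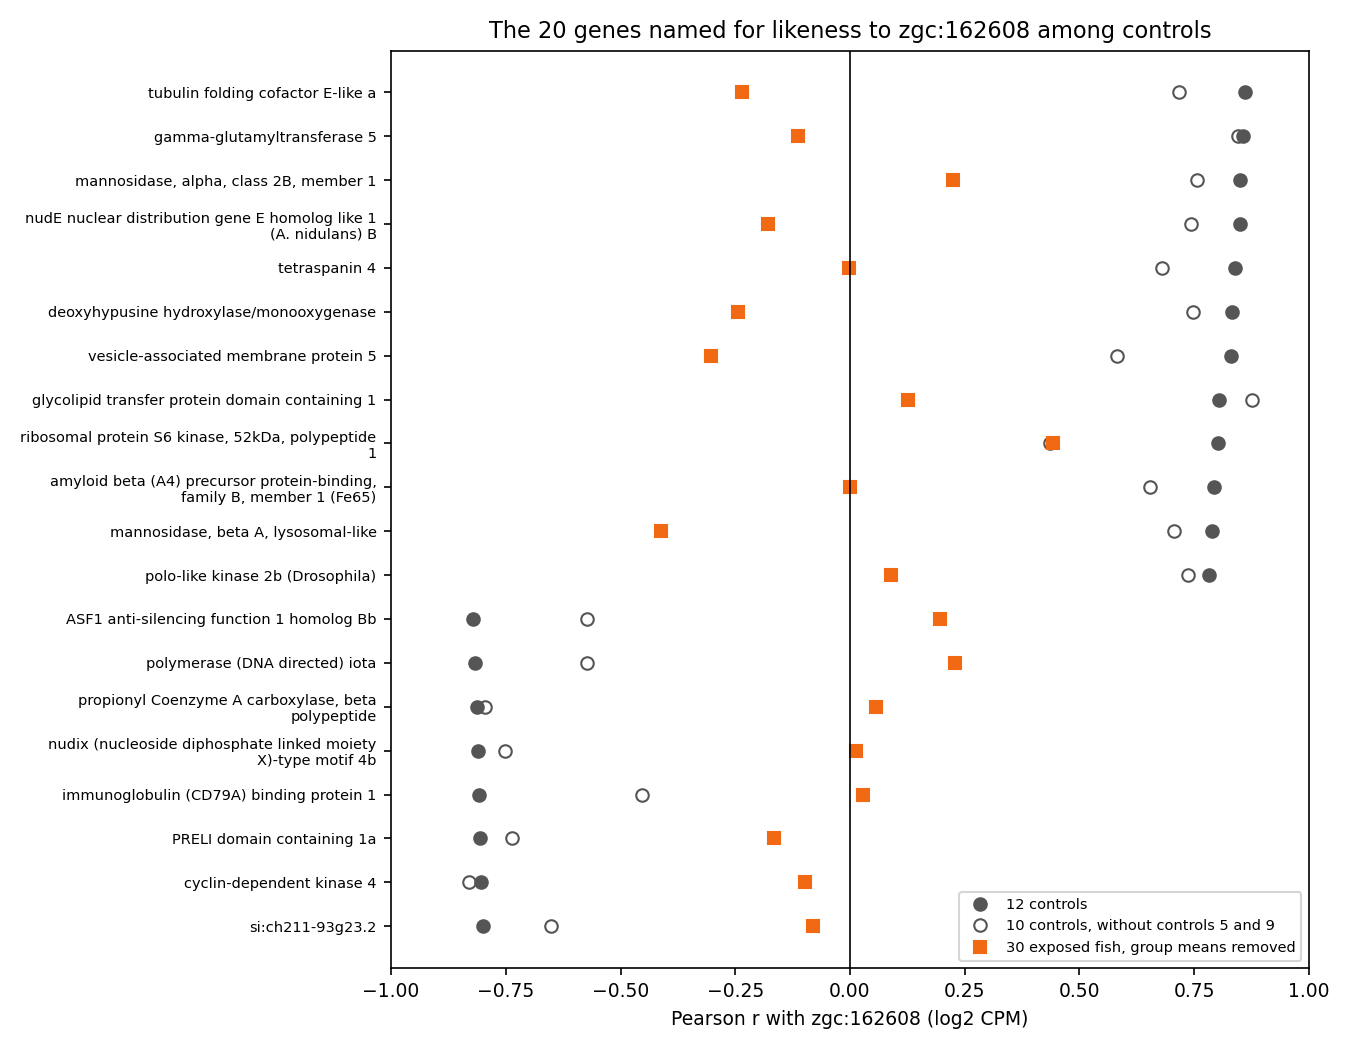
Pearson's r with zgc:162608 (x axis, log2 CPM) for the 12 genes with the highest and the 8 with the lowest r among the 12 controls (filled circles), the same without controls 5 and 9 (open circles) and over the 30 exposed fish after removing group means (squares). The circles lie between 0.44 and 0.88 or between -0.83 and -0.45, while the squares lie between -0.41 and 0.44.

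Lists of liver genes were then read in the same way, with 183 of their 189 genes entered, and none passed the adjusted threshold in controls. An unadjusted permutation p under 0.05 was reached by 20 of the 183 (10.9%), against 5.87% of all 16983 genes entered, and genes of a list are not independent. The secreted plasma proteins had positive r in 29 of 30 genes, with a median of 0.32 against -0.01 over all genes entered. The highest were the complement genes c3a (r = 0.62, permutation p = 0.0284) and c3b (r = 0.62, permutation p = 0.0295), and the lowest was retinol binding protein 4 (r = -0.14, permutation p = 0.674). The hepatocyte markers, which share 11 genes with that list, had positive r in 13 of 14 genes with a median of 0.34. In exposed fish the medians were 0.07 for plasma proteins and 0.16 for hepatocyte markers.

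The sterol synthesis genes went the other way, with negative r in 18 of 20 and a median of -0.24. They ran from mevalonate decarboxylase (r = 0.27) and mevalonate kinase (r = 0.02) to lanosterol synthase (r = -0.43), which closes the sterol ring. The negative r of lanosterol synthase rests on the 2 farthest controls, since r was 0.23 without them. Its rho over all controls was -0.03. The genes of fatty acid synthesis and storage had negative r in 15 of 22 with a median of -0.24. Among them sterol regulatory element binding transcription factor 1, a regulator of lipid synthesis, had r = -0.75 (permutation p = 0.00686) but rho = -0.47, and lipin 1 (r = 0.36) and MLX interacting protein-like (r = 0.30) were highest. In exposed fish the medians of these 2 lists were 0.07 and -0.15. The apolipoproteins had 15 of 21 positive and a median of 0.22, led by apolipoprotein A-Ia (r = 0.63) and the low density lipoprotein receptor (r = 0.48), with lipoprotein lipase lowest (r = -0.63). For lipoprotein lipase the relation rests on the 2 farthest controls, since r was 0.01 without them. Without the same 2 controls r was 0.55 for apolipoprotein A-Ia, whose rho over all controls was 0.39, and 0.75 for the low density lipoprotein receptor. Fatty acid oxidation and fasting genes had 17 of 26 positive and a median of 0.17, with insulin-like growth factor binding protein 1b (r = 0.63) and carnitine palmitoyltransferase 1B (r = 0.60) highest and pyruvate dehydrogenase kinase 4 lowest (r = -0.35).

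Of the circadian clock genes, 15 of 24 were positive with a median of 0.14. The 2 highest were nuclear receptor subfamily 1 group D members 2b (r = 0.74, permutation p = 0.00736; rho = 0.71) and 2a (r = 0.73, permutation p = 0.00991; rho = 0.71), repressors of the clock whose own level cycles over the day, and bhlhe40 was lowest (r = -0.45). Member 2b was at 34.8 and 46.8 CPM in controls 9 and 6 and between 14.9 and 23.4 CPM in the other 10. Without controls 9 and 5 the r was 0.80 for member 2b and 0.85 for member 2a, and over the exposed fish it was 0.31 and 0.23. Control 6 stayed among the controls left, where it had the most zgc:162608 (59.8 CPM) and the most of both members. It was at 5.63 CPM of member 2a, and the next of the controls left, control 11, was at 1.91 CPM. The values of 0.80 and 0.85 may thus rest largely on control 6, and r without it is not given here. Neither member passed in the 12 controls (adjusted p of 0.844 for both by the permutation test).

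The endoplasmic reticulum chaperones were evenly divided, 13 positive and 12 negative, with herpud1 (r = 0.58) and dnajc3a (r = 0.36) highest and zgc:77086, listed as pdia3, lowest (r = -0.54). The r of these chaperones without controls 9 and 5 was 0.75 for herpud1, 0.18 for dnajc3a and -0.07 for zgc:77086. The cytosolic heat shock proteins had 9 of 15 positive, with heat shock protein 8-like (r = 0.68) and dnajb1a (r = 0.66) highest and the mitochondrial chaperonin hspe1 lowest (r = -0.76, permutation p = 0.00686). Without controls 9 and 5 these were 0.39, 0.21 and -0.56. In the comparisons between groups, no member of the 8 lists was called by edgeR's quasi-likelihood test in any of the 8 contrasts, whose backgrounds are given above.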

How the data were processed

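Portions of the liver of single fish were sequenced (Illumina TruSeq RNA). The count values are raw reads per Trinity transcript that the authors obtained by mapping each fish to their own assembly with Bowtie2 2.1.0, keeping 1 hit per read, and counting with SAMtools 0.1.18; replicates were not pooled. The deposited tables also hold the authors' own fold changes, p values and calls, which were not used. A repeated header line at the end of the HR table was left out, and 0 columns were unmapped.

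Counts were summed per zebrafish ID, or per Trinity component where a transcript had none. Genes with reads in no fewer than 6 fish of a comparison (1 read or more each) were tested with edgeR 4.0.16 in R 4.3.3 (TMM, quasi-likelihood F-test, 2-sided, no covariates), with Benjamini-Hochberg adjustment over all genes and an FDR threshold of 0.1. SEs are the log2 fold change divided by the square root of F, and the 95% intervals are 1.96 SEs either side. Log2 CPM adds a prior count of 2. Exact permutation tests compared mean log2 CPM over all splits. Likeness was Pearson's r with 100000 resamples (Python 3.11.15, numpy 2.4.6, scipy 1.17.1). The fish are separate animals, but tanks are unknown. Named were all member transcripts, the 12 genes with a zebrafish ID with the highest and the 8 with the lowest r, and in each list the 2 highest and the 1 lowest. Members and lists were chosen with earlier results of these data known. List symbols were matched through the descriptions and other-fish symbols in the files. Markers of 7 cell types were summed.

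Alternatives were DESeq2 size factors, other filters, DESeq2 1.42.0, the edgeR exact test (prior df 10), the replicate number as a block, all groups together, components, and leaving out each fish. Tested on simulated data for MR against control (20832 genes), the quasi-likelihood test found 62 of 100 genes changed 2-fold and 96 of 100 changed 4-fold, with 14 false calls. For HR against HG (20345 genes) it found 50 and 93 of 100, with 17 false calls. The simulated folds were equal in all fish, and each gene had its own dispersion. The changed genes were drawn at random from those above a minimum abundance, so the rates leave out the least abundant genes tested. Within exposed groups zgc:162608 varied more than most genes (SD of log2 CPM 1.46 against a median of 0.42), so these rates do not hold for it. Reads counted per fish ranged over 10186777 to 33239495.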

Additional observations from a re-analysis of the deposited data

Results flagged for a closer look

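By Dixon's criterion (95%) for the highest or lowest fish of a group of 6, 17 of 75 groups of values stood out. The criterion was applied to CPM and to percent of reads. Its chance rate of about 1 in 20 holds for normally distributed values, and CPM can be skewed upward, so the 17 cannot be set against that rate. In log2 CPM of the sum, HG fish 1 was at 8.87, the next HG fish at 6.38 and the lowest at 3.19, and the criterion was not applied on that scale. The 75 are also not independent, since they are the sum, the isoforms and the isoform shares of the same fish. The 12 controls are too many for the criterion.

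HG fish 1 was far above the other HG fish for the sum, at 468 CPM with the next fish at 83.0 CPM, and for every isoform: 26.6 CPM for isoform 1, 53.4 for isoform 3, 64.8 for isoform 4, 109.8 for isoform 5, 81.2 for isoform 6, 58.0 for isoform 7 and 73.9 for isoform 8. Isoform 1 was also far above the rest of the group in LG fish 1 (24.8 CPM, next 3.295) and in LR fish 3 (19.7 CPM, next 8.50).

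As a share of the reads of the gene, isoform 1 stood out in MR fish 1 (64.9%, next 8.51%), HR fish 3 (18.9%, next 3.74%) and LG fish 1 (26.5%, next 6.22%). In MR fish 1 the shares of isoform 5 (6.49%), isoform 6 (5.19%), isoform 7 (5.19%) and isoform 8 (2.60%) were correspondingly far below those of the other MR fish.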

How the results depend on the processing

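Under the other scalings, filters and tests, all groups together, components, and the sum without isoform 1 (chosen after seeing the data), the log2 fold change stayed at 2.02 to 2.03 for LR, 0.97 to 1.01 for MR, 1.23 to 1.26 for HR, 0.10 to 0.22 for LG and 1.55 to 1.57 for HG over control, 1.33 to 1.44 for HG over LG, 0.23 to 0.29 for HR over MR and -0.34 to -0.31 for HR over HG. No tested contrast passed the threshold under any of these, the lowest adjusted p being 0.134 (HR, edgeR exact test). Leaving out each fish gave 1.88 to 2.25 for LR, 0.61 (without MR fish 3) to 1.23 for MR, 0.92 to 1.48 for HR, -0.16 to 0.44 for LG, 0.08 to 1.79 for HG, -0.13 to 1.71 for HG over LG, -0.09 (-0.0913, without HR fish 6) to 0.63 for HR over MR and -0.65 to 1.15 for HR over HG. LG was -0.16 without LG fish 1. Without control 9, LG was 0.44, since that control is the highest.

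Of the 28 isoform tests, 0 passed in the quasi-likelihood test, 1 by DESeq2 and 2 by the edgeR exact test; the cause was not tested. No gene followed zgc:162608 among controls at an adjusted p under 0.1 under any alternative, with 486 to 1277 genes at an unadjusted p under 0.05 when each control was left out. The smallest adjusted p then ran from 0.170 (without control 12) to 0.9997 (without control 9), against 0.844 over all controls. Over 16983 genes, 100000 resamples cannot give a single gene an adjusted p below 0.170. Without control 12 the smallest value sat at that limit, so the lack of a call there decides nothing. None of the 20 named genes changed the sign of r in 366 values of r under the alternatives. They were chosen for the most extreme r over these same controls, so a change of sign was unlikely from the start and nothing is read from this.

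With the replicate number as a block, log2 fold changes were 2.15 for LR, 1.11 for MR, 1.07 for HR, 0.05 for LG and 0.76 for HG over control, 0.67 for HG over LG, 0.24 for HR over MR and 0.33 for HR over HG, none of the tested ones past the threshold. The numbers are not shown to pair the fish: 17 of 48 same-numbered pairs had deviations correlated above 0.1 (range -0.44 to 0.41). Controls 7 to 12 have no exposed fish of the same number, so the block values over control rest on controls 1 to 6.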

Other observations

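Chosen after seeing the data, the genes most like zgc:162608 among the 30 exposed fish were listed, with each group mean removed. They are given as descriptions without a test. Of 16983 genes, 44 had an absolute Pearson's r of at least 0.6, 19 positive and 25 negative. Of these, 23 had the same sign of r among the 12 controls, and 1 reached 0.6 there as well.

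Among genes with a zebrafish ID the highest was BCL2-associated athanogene 5, a co-chaperone of heat shock protein 70 (r = 0.74, rho = 0.64), at r = 0.78 without the 4 libraries that stood apart and 0.69 without HG fish 1. Among controls its r was -0.06. Protein kinase C and casein kinase substrate in neurons 3, which shapes membranes, had r = 0.70 in exposed fish and -0.23 in controls. On the negative side, cell division cycle 34 homolog a, a ubiquitin-conjugating enzyme, had r = -0.70 in exposed fish and 0.14 in controls, and kelch-like 24 had r = -0.68 and 0.02.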
